A study of Homo sapiens with 4 samples.

Results

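The genes described here lie on the long arm of human chromosome 7, in an interval of GRCh38 that runs from 87.1 to 152.2 Mb. Below, the arm stands for this interval only, which is part of the long arm. Members are the protein-coding genes of GENCODE 29 that start in this interval and have a mean of at least 1 FPKM (a read density scaled by exon length and library size) over the 4 libraries. A few genes of other families (NADH dehydrogenase, ATP synthase and ribosomal protein genes, and 8 single genes) were left out by rule. The interval holds 495 protein-coding genes, of which 13 were left out and 224 lay under the filter, so 258 members remained among 12777 tested genes and 58735 gene IDs in all. The interval was chosen by its fold changes in the same comparison that is described below. The fold changes of the members are therefore a description of these libraries, and the share of members that moved supports nothing by itself.

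The study compared 2 libraries of control HT8 cells with 2 libraries of HT8 cells that carry the label PPDPF knockdown (source name HT8-cas1). HT8 is labelled as a colon cancer line, and PPDPF is a gene named for a role in pancreatic progenitor cells. The labels do not say how the knockdown was made, whether the altered line is 1 clone, or how the cells were grown. PPDPF was at 237 and 266 FPKM in the controls and at 281 and 283 FPKM in the other group, so the targeted gene was not lower, and that group is called the libraries labelled knockdown throughout. Each library held between 17069628 and 19479906 reads in genes. Whether the 2 libraries of each group stem from separate cultures is not stated, so p-values measure the spread between these libraries only, which may be technical. In bulk RNA, a change in the number of cells of some kind and a change in RNA per cell cannot be told apart. All 9 listed markers of colon epithelium had a mean above 1 FPKM over the 4 libraries, with a summed level of 1968 and 2112 FPKM in the controls and 2293 and 2259 in the libraries labelled knockdown, most of it from the keratins KRT8 and KRT18. Single markers differed: KRT20 was at 0.339 and 0.717 against 2.61 and 2.94 FPKM and LGALS4 at 42.6 and 46.8 against 70.3 and 68.1, while CDH1 was at 119 and 121 against 107 and 111 FPKM. The part of these differences in the results was not tested. Of fibroblast markers 0 of 5, of endothelial markers 0 of 4 and of leukocyte markers 1 of 5 (CD14, at 0.860 to 1.86 FPKM) reached a mean of 1 FPKM. PTPRC, a general leukocyte marker, and CD3E, a T cell marker, were at 0 in each library.

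The long arm of chromosome 7 has no single function. It carries the receptor kinase MET, the caveolins, the histone methyltransferase EZH2, cell cycle kinases such as CDK6 and CDK5, subunits of vesicle coats and of the vacuolar proton pump, and clusters of zinc finger, mucin, taste receptor and trypsinogen genes. Neighbouring genes on an arm as a rule have separate promoters and regulators. Extra copies of chromosome 7 are common in colorectal cancer. The files hold RNA values only, and no measure of DNA copy number was used here.

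Across the interval, most members were higher in the libraries labelled knockdown, by a modest amount that varied from gene to gene. The median log2 fold change of FPKM + 1 was 0.28 over the 258 members (quartiles 0.12 and 0.42) and 0.0011 over all 12777 tested genes. The median ratio of mean FPKM, labelled knockdown over control, was 1.26 (quartiles 1.11 and 1.39). In all, 224 members (86.8%) had a log2 fold change above 0, against 50.1% of the 10257 protein-coding genes of other chromosomes. Both libraries labelled knockdown lay above both controls for 195 members (75.6%), where 35.9% of all tested genes did so, and below both for 21 members (8.14%), where 33.8% did so. By limma-trend with Benjamini-Hochberg adjustment at 0.05, 141 members (54.7%) were called higher and 8 (3.10%) lower. The background over all tested genes was 16.8% called higher and 13.0% called lower. Because the interval was picked on this contrast, nothing is read from the gap between these shares. Without knockdown replicate 2, 88 members were called higher and 4 lower, where 9.08% and 7.19% of all tested genes were. Leaving out each of the other 3 libraries gave 94 to 97 higher and 3 to 5 lower.

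**Figure D1:**
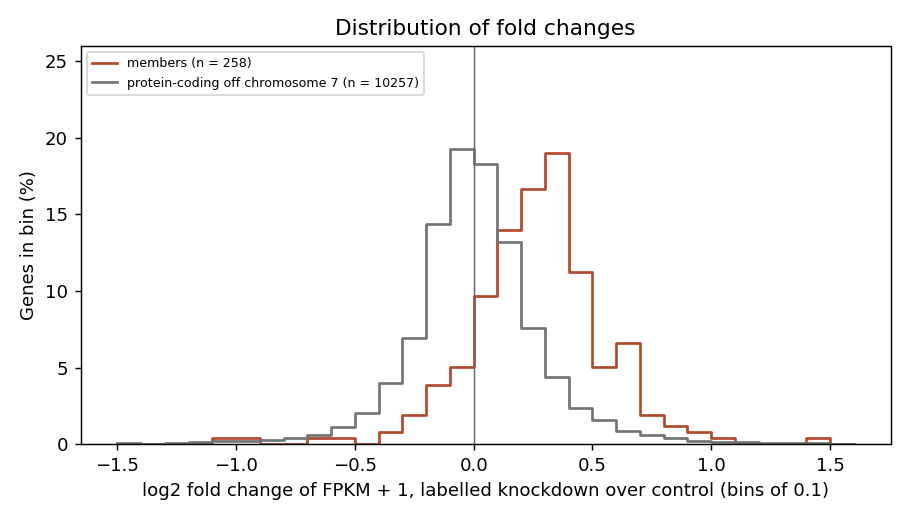
Share of genes (percent, vertical axis) in bins of 0.1 of the log2 fold change of FPKM + 1 (horizontal axis), for the 258 members and for the 10257 protein-coding genes of other chromosomes, of which 27 lie beyond the plotted range. The curve of the members has about the same width as the other and sits to its right, with a median of 0.28 against 0.00062.

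The same picture appeared in each library. The members took 254926 reads (1.47%) in control replicate 1 and 285471 (1.47%) in control replicate 2. In the libraries labelled knockdown they took 321605 (1.86%) and 317834 (1.86%). The protein-coding genes of chromosome 7 outside the interval took 2.37% and 2.38% in the controls and 2.41% and 2.41% in the libraries labelled knockdown. Paired in each possible way, a library labelled knockdown exceeded a control by a median of 0.27 to 0.30 on the log2 scale over the members, and 216 to 224 of the 258 members were higher in it. Between libraries of the same group the median difference was 0.0030 between the 2 controls and 0.00035 between the 2 libraries labelled knockdown. In those comparisons 130 and 129 members were higher in replicate 2, so no shift of the arm appeared within a group.

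**Figure D2:**
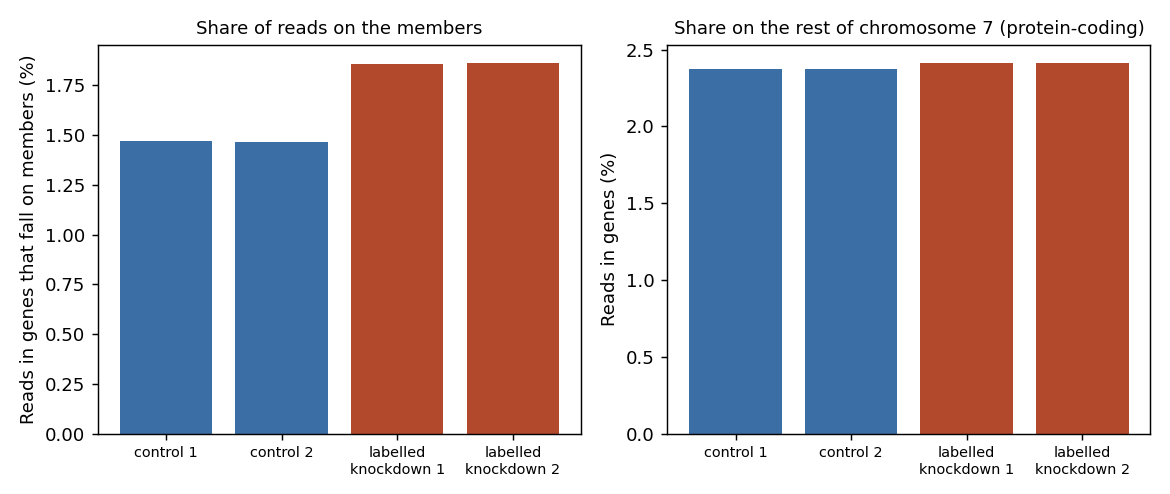
Percent of all reads in genes (vertical axes, from 0) that fall on the 258 members (left) and on the other protein-coding genes of chromosome 7 (right), 1 bar per library. The bars of the members stand at 1.47% in both controls and 1.86% in both libraries labelled knockdown, while those of the rest of the chromosome stay between 2.37% and 2.41%.

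The spread of the members around their median resembled that of genes elsewhere. The SD of the log2 fold change was 0.290 over the members and 0.302 over protein-coding genes of other chromosomes. Within 0.2 of the members' median lay 158 members (61.2%). Strand made little difference, with a median of 0.28 for the 147 members on the plus strand and 0.27 for the 111 on the minus strand. Abundant members had larger values: the median was 0.16 for 89 members with a mean under 5 FPKM, 0.29 for 72 from 5 to under 10, 0.33 for 64 from 10 to under 30, and 0.43 for 33 at 30 FPKM or more. All of the last 33 had a log2 fold change above 0, and 29 of them were called higher. Calls were also more frequent among abundant genes elsewhere. Of protein-coding genes of other chromosomes, 17.7% were called higher, and 23.9% of those with a mean of at least 10 FPKM. Adding 1 to FPKM understates the change of low genes on this scale. The ratio of mean FPKM, which has no such term, had medians of 1.17, 1.26, 1.28 and 1.36 in the same 4 classes.

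Other properties of the genes went little with the fold change. Across the 258 members, Pearson's r with the log2 fold change was 0.32 for mean level (Spearman's rho 0.33), -0.010 for exon length (rho -0.035) and -0.043 for the length of the gene (rho -0.0081). Over the 219 members with a promoter sequence it was 0.069 for the share of G and C (rho 0.0045). Each member and the next one along the arm gave r = 0.014 (rho -0.045, 257 pairs), so beyond the common shift, direct neighbours were not more alike. These are correlations across genes that share the same 4 libraries, and genes are not independent replicates.

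Along the interval, the shift was present from end to end with local differences. The interval was divided into 10 sections of 6.51 Mb. Section medians of the log2 fold change ran from 0.13 to 0.44, all above 0. The highest was that of 113.1 to 119.7 Mb, with 8 members of which 7 were called higher, and this section holds TES, CAV2, CAV1 and MET. The lowest was the adjoining section from 119.7 to 126.2 Mb, also with 8 members, where 2 were called higher and 1 lower. The section with the most members, 100.1 to 106.6 Mb, had a median of 0.30 over 53 genes. Of these, 30 (56.6%) were called higher and 2 (3.77%) lower, near the 54.7% and 3.10% of all members. Over all tested genes, 16.8% were called higher and 13.0% lower. Values of the sections with 8 members rest on few genes. The last section, from 145.7 to 152.2 Mb, had a median of 0.21 over 37 members. In the section from 93.6 to 100.1 Mb, 35 of 36 members had a log2 fold change above 0.

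**Figure D3:**
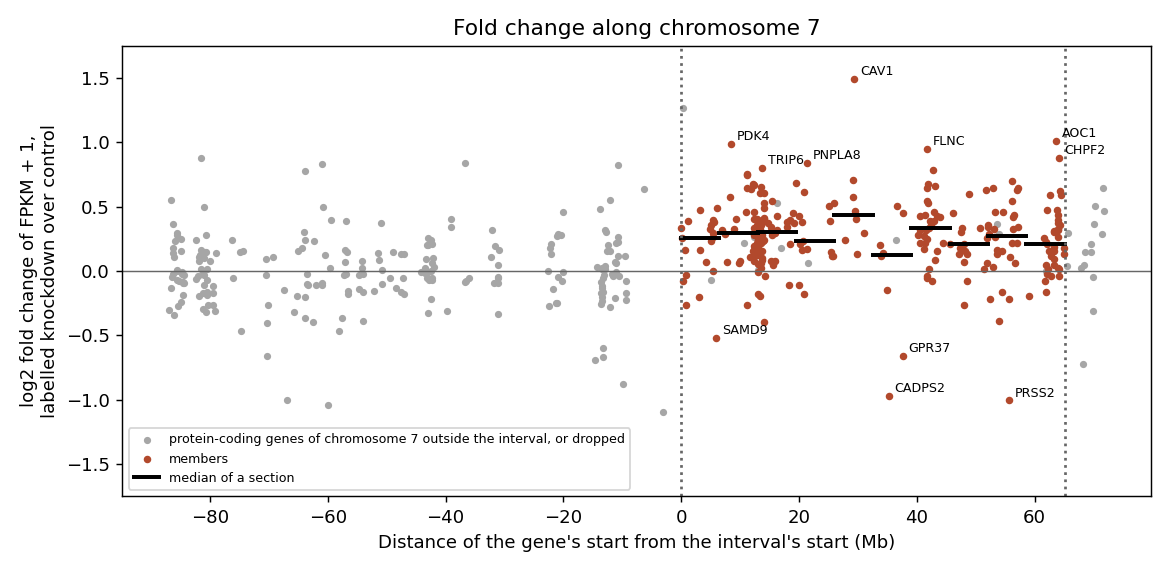
log2 fold change of FPKM + 1 (vertical axis) of each tested protein-coding gene of chromosome 7 against the distance of its start from the start of the interval in Mb (horizontal axis); dotted lines mark the interval and black bars the medians of its 10 sections. Left of the interval the points scatter around 0 (median -0.02), and within it each section median lies above 0, between 0.13 and 0.44.

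At the proximal end, the values inside and outside the start of the interval were mixed, and they do not place a step there. The 224 tested protein-coding genes of chromosome 7 that start before the interval had a median log2 fold change of -0.02. They take in the short arm and the first part of the long arm. The nearest of them, SEMA3A (a secreted axon guidance protein, starting at 83.96 Mb), had 6.95 and 7.004 FPKM in control and 2.77 and 2.71 in the libraries labelled knockdown. SEMA3C, of the same family, at 80.74 Mb, went the other way, with 3.28 and 3.61 against 5.57 and 6.26 FPKM. PHTF2, TMEM60 and RSBN1L, at 77.70 to 77.80 Mb, had log2 fold changes of -0.17, -0.23 and -0.08. The first members inside were DMTF1 (a cyclin D-binding transcription factor, 87.15 Mb), at 3.54 and 3.58 against 4.80 and 4.70 FPKM, and TMEM243 (87.20 Mb), at 6.66 and 7.12 against 8.10 and 8.73 FPKM. The next members were mixed: CROT (peroxisomal carnitine octanoyltransferase), SLC25A40 (a mitochondrial carrier) and DBF4 (activator of the replication kinase CDC7) had log2 fold changes of -0.08, 0.16 and -0.03, and none of the 3 was called. Farther in, ADAM22 and STEAP1, a metalloreductase family member, were at -0.26 and -0.20, also not called, and were chosen after their values were seen.

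At the distal end no sharp step was seen. The last members were NUB1 (a regulator of NEDD8, 151.34 Mb), at 19.5 and 19.2 against 25.003 and 25.2 FPKM, RHEB (the GTPase that activates mTORC1), at 27.1 and 24.5 against 38.6 and 41.6 FPKM, and PRKAG2 (a subunit of the energy sensor AMPK), at 3.91 and 4.27 against 6.46 and 6.83 FPKM. GALNT11 (a mucin-type glycosyltransferase) and KMT2C (a histone H3 lysine methyltransferase, 152.13 Mb) had smaller log2 fold changes of 0.18 and 0.14 and were not called. Past the end, XRCC2 (a homologous recombination protein, 152.64 Mb), ACTR3B (an actin-related protein), PAXIP1 (a DNA damage response protein) and EN2 (a homeobox gene) had log2 fold changes of 0.04, 0.30, 0.02 and 0.05. INSIG1, which retains the sterol sensor SCAP in the endoplasmic reticulum, was at 28.0 and 32.01 FPKM in control and at 17.0 and 18.5 FPKM in the libraries labelled knockdown. Over all 15 tested genes past the end, the median was 0.15, and 12 lay above 0. Of the 15, 5 (33.3%) were called higher and 2 (13.3%) lower, against 16.8% and 13.0% of all tested genes. The last of them along the chromosome, UBE3C, DNAJB6, NCAPG2, ESYT2 and WDR60, had log2 fold changes of 0.37, 0.51, 0.29, 0.64 and 0.47. These last genes were named after their values were seen.

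The filter on level also set an edge. The members just inside it were KCP, a secreted BMP regulator (mean 1.01 FPKM), ARPC1B, an actin nucleation subunit (1.02), and ADAM22, a catalytically inactive metalloprotease family member (1.05). Just outside were ZCWPW1 (0.992), IMMP2L (0.963) and SAMD9L (0.951). SAMD9L, the interferon-induced paralog of SAMD9, had 181 and 277 reads in the controls and 19 and 28 in the libraries labelled knockdown (1.44 and 1.98 against 0.154 and 0.231 FPKM), so it lay under the filter through its low values in the second group. In the opposite way, 5 members (PDK4, ARPC1B, GAL3ST4, POLR2J3 and KCP) had a control mean under 1 FPKM and passed only through the libraries labelled knockdown, and 3 of them (PDK4, POLR2J3 and KCP) were called higher. KCP was at 0.640 and 0.628 against 1.46 and 1.30 FPKM. ADAM22 and TMEM178B passed only through the controls, and neither was called. Of the 224 genes under the filter, 84 had 0 reads in each library. They include 9 taste receptor and 15 olfactory receptor genes, 8 GIMAP genes (GTPases of lymphocytes, at most 0.445 FPKM), 5 CYP3A drug-metabolising enzymes (at most 0.255 FPKM) and the mucins MUC3A, MUC12 and MUC17.

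Individual members departed from the common shift in both directions. A member was said to depart when both libraries labelled knockdown, after the members' median of 0.28 was taken off, were still both above or both below the 2 controls. Among the 169 members with a mean of at least 5 FPKM, 81 (47.9%) departed above and 49 of the 169 below. The same count around the median of all genes at that level gave 38.2% above and 36.8% below, so departures of this kind are common and most are small. The median of the 169 members alone was 0.33, above the 0.28 used, which adds to the count above. Of the 49 below, 25 were still higher in both libraries labelled knockdown than in both controls, 12 had a log2 fold change under 0 and 9 were lower in both than in both controls.

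CAV1 (ENSG00000105974, chromosome 7, 116524785 to 116561184, plus strand), the main coat protein of caveolae, stood farthest above the shift. It had 2.49 and 2.87 FPKM in the controls and 9.34 and 9.38 FPKM in the libraries labelled knockdown. The reads behind these values were 179, 230, 658 and 649. Group means of 2.68 ± 0.264 and 9.36 ± 0.0259 FPKM (SD, n = 2 each) gave a ratio of 3.49 and a log2 fold change of 1.49 (SE 0.07), which is 1.21 above the members' median. Its neighbours on either side moved less. CAV2, the partner caveolin just before it, was at 3.94 and 4.58 against 7.23 and 6.45 FPKM, a ratio of 1.61. TES, a LIM protein of focal adhesions, was at 32.5 and 31.5 against 53.5 and 52.0 FPKM, a ratio of 1.65. MET, the receptor of hepatocyte growth factor and the next gene after CAV1, was at 30.1 and 31.8 against 42.2 and 44.0 FPKM, a ratio of 1.39. CAV2 and MET were chosen after their values were seen. In all 4 genes both libraries labelled knockdown lay above both controls, with CAV1 apart from its neighbours in size. For CAV1 and TES the rule of choice required this, and 35.9% of all tested genes lay above both controls.

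Among members with a mean of at least 5 FPKM, the others farthest above the shift had smaller ratios than CAV1, from 1.65 to 2.09. AOC1, the diamine oxidase that degrades histamine, had 14.5 and 14.6 FPKM in control and 28.99 and 31.8 in the libraries labelled knockdown, a ratio of 2.09. FLNC, an actin-crosslinking filamin, had 19.8 and 23.4 against 45.2 and 40.1 FPKM, a ratio of 1.97. PNPLA8, a calcium-independent phospholipase A2, had 6.73 and 6.38 against 12.6 and 12.5 FPKM. Each of these lay wholly above its controls, which the rule of choice required. Of all tested genes, 35.9% did so. CHPF2, a chondroitin-polymerising factor, had 20.9 and 21.5 against 39.0 and 40.7 FPKM. TRIP6, a LIM protein of focal adhesions in the zyxin family, had 46.1 and 43.7 against 79.5 and 78.8 FPKM. UBE2H, a ubiquitin-conjugating enzyme, had 21.2 and 20.9 against 36.9 and 37.0 FPKM. BAIAP2L1 is a membrane-bending protein of actin protrusions, and it overlaps the next gene, BRI3, on the opposite strand over 16.6% of its exons. The labels do not state the strand setting of the counting, so reads there cannot be told apart. BAIAP2L1 and BRI3 had FPKM ratios of 1.72 and 1.70. TMEM139, with 25.4% of its exons under a gene of the other strand, and CCDC71L had ratios of 1.68 and 1.73. All 12 of these genes, CAV1 and TES included, were called higher, which their choice by size in this same contrast made likely.

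A smaller group ran against the arm. SAMD9 (ENSG00000205413, chromosome 7, 93099513 to 93118023, minus strand), an antiviral factor induced by interferon, had 8.71 and 9.79 FPKM in control and 6.05 and 6.26 FPKM in the libraries labelled knockdown. Its group means were 9.25 ± 0.764 and 6.16 ± 0.149 FPKM (SD, n = 2 each), a ratio of 0.666 and a log2 fold change of -0.52 (SE 0.07), which is -0.80 from the members' median. TMEM140, a membrane protein gene with 22.7% of its exons under a gene of the other strand, was at 7.82 and 8.18 against 6.64 and 6.32 FPKM. PRSS1, a trypsinogen, was at 13.1 and 12.2 against 10.5 and 11.0 FPKM. MEPCE, which caps the 7SK RNA that restrains transcription elongation, was at 24.5 and 22.9 against 20.9 and 20.4 FPKM. LAMB1, a laminin chain of basement membranes, was at 21.7 and 21.5 against 18.5 and 19.5 FPKM. These 5 genes were called lower and were below both controls in both libraries. Of all tested genes, 13.0% were called lower and 33.8% lay below both controls.

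The remaining 7 of the 12 members farthest below the shift were not called. KIAA1147 had a log2 fold change of -0.16 and PRKAR2B, a regulatory subunit of protein kinase A, one of -0.11. PUS7, a pseudouridine synthase, had -0.11 and NUP205, a scaffold protein of the nuclear pore, -0.08. EZH2, the methyltransferase of the Polycomb repressive complex PRC2, had 12.9 and 13.3 FPKM in control and 12.6 and 12.1 in the libraries labelled knockdown. IFT22, a protein of intraflagellar transport, and DBF4 had -0.04 and -0.03. KIAA1147, PUS7, NUP205 and EZH2 lay under both controls in both libraries, while PRKAR2B, IFT22 and DBF4 overlapped with theirs. Of all tested genes, 33.8% lay below both controls, and these 7 were chosen for their low values.

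**Figure D4:**
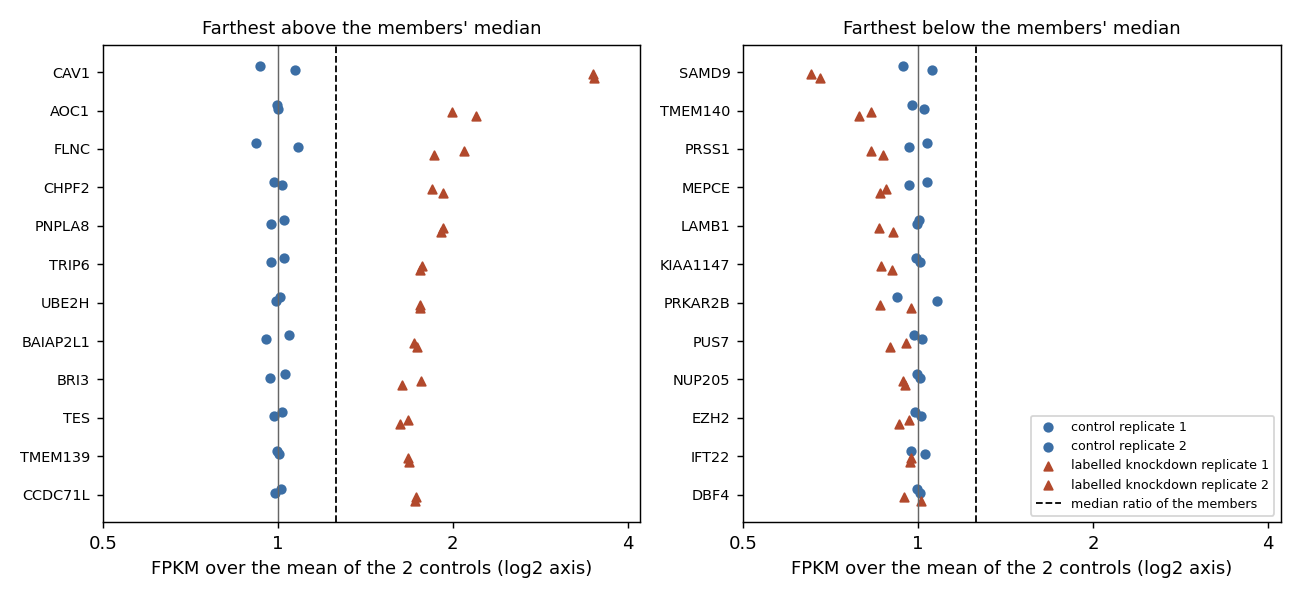
FPKM of each library over the mean of the 2 controls (horizontal log2 axis). Among members with a mean of at least 5 FPKM, the 12 farthest above (left) and the 12 farthest below (right) the median of the members are shown. Circles are controls, triangles libraries labelled knockdown, and the dashed line is the median ratio of 1.26. CAV1 stands apart on the left with a ratio of 3.49, and on the right SAMD9 is lowest with 0.666, while most genes below it stay near 1.

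Members under 5 FPKM were outside that naming rule, and the following were picked after their values were seen. The other 3 of the 8 members called lower were PRSS2, CADPS2 and VGF. PRSS2, a close copy of PRSS1 with which it can share reads, had 4.25 and 3.31 FPKM in control and 1.38 and 1.36 in the libraries labelled knockdown (94, 82, 30 and 29 reads). CADPS2, a priming factor of dense-core vesicle release, had 4.49 and 4.21 against 1.65 and 1.81 FPKM. VGF, a secreted peptide precursor of neuroendocrine cells, had 4.58 and 4.06 against 3.15 and 2.94 FPKM. In the other direction, PDK4, a kinase that switches off pyruvate dehydrogenase, had 0.516 and 0.259 against 1.68 and 1.80 FPKM, from 41, 23, 131 and 138 reads, and was called higher. PDK4 passed the filter only through the libraries labelled knockdown. Its FPKM ratio of 4.49 was above that of CAV1, while its log2 fold change of FPKM + 1, 0.99, was smaller. SAMD9, CADPS2 and PRSS2 were called lower in each setting in which they were tested. MEPCE, VGF, LAMB1, TMEM140 and PRSS1 lost the call when 1 or another library was left out, and also when no filter on level was applied. LAMB1 and PRSS1 lost it with the replicate number as a block too.

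Promoter sequences are shown for genes at both extremes, chosen after the values were seen: the pair of named members farthest below the shift (SAMD9 and TMEM140) and 3 caveolar or focal adhesion genes from those farthest above it. Each runs from 250 bases before to 50 after the RefSeq start (GRCh38.p14), 5′ to 3′. Capitals mark 3 motifs searched on both strands: GAAANNGAA (a core of the interferon-stimulated response element), TGANTCA (the AP-1 site) and CACGTG (an E-box). The first base of the gene in GENCODE minus that in RefSeq is 44 bases for SAMD9, 0 for TMEM140, -224 for CAV1, -46 for TES and -249 for TRIP6.
SAMD9, chr7:93117930-93118229, minus strand: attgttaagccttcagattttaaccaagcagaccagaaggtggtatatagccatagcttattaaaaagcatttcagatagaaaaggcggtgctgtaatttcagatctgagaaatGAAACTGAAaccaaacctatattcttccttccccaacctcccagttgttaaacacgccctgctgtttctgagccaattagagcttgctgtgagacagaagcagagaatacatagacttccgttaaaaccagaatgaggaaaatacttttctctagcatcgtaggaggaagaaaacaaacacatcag
TMEM140, chr7:135147822-135148121, plus strand: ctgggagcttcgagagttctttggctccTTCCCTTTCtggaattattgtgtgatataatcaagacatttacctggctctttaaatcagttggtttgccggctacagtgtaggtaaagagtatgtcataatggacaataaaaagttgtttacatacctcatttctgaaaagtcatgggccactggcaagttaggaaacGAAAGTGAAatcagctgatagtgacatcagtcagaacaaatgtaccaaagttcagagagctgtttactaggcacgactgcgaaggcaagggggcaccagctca
CAV1, chr7:116524759-116525058, plus strand: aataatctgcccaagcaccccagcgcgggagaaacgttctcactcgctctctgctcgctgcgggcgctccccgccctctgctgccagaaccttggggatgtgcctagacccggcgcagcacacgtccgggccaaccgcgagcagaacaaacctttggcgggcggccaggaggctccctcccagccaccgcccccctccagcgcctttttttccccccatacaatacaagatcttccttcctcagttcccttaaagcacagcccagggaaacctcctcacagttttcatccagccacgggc
TES, chr7:116210289-116210588, plus strand: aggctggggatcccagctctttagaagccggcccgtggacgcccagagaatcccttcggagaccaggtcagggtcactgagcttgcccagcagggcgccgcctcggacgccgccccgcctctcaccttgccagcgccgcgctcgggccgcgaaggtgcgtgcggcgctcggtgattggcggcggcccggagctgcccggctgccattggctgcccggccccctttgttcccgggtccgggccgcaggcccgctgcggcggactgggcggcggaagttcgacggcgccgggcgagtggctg
TRIP6, chr7:100867137-100867436, plus strand: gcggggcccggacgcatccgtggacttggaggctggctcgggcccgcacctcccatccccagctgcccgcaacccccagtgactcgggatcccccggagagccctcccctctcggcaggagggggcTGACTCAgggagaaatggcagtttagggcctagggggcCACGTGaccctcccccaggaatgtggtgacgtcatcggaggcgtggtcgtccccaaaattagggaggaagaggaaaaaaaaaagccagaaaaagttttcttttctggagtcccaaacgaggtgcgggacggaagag

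SAMD9 held 1 match of GAAANNGAA and TMEM140 held 2, and CAV1 and TES held no match of the 3 motifs. TRIP6 held 1 match each of TGANTCA and CACGTG. Among the 12 members farthest below the shift, 2 of 10 promoters found in the table held GAAANNGAA, and among the 12 farthest above, 2 of 11 did (PNPLA8 and CCDC71L, not shown). The motif was in 5.02% of 219 member promoters and in 8.11% of all 35116 promoters of the table. TGANTCA was in 5.02% and 7.71%, and CACGTG in 12.8% and 7.26%. A match describes letters in this window and is no evidence of a bound site.

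The members were then grouped by role, in 10 lists that overlap in part. No list is independent of the choice of the arm, and each is described by its count and median beside the arm's median of 0.28. Each list but that of interferon-linked genes had a median of at least 0.21. The share of all tested genes called higher (16.8%) or lower (13.0%) applies to each count.

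Genes of membrane trafficking and the vacuolar proton pump had the highest list median, 0.43. The list also holds genes of other kinds, such as ARPC1A and ARPC1B (actin nucleation), BAIAP2L1 and IFT22. Of its 19 members, 13 were called higher and none lower, and 18 lay above both controls. AP1S1, a subunit of the AP-1 clathrin adaptor and the most abundant member of the arm, was at 129 and 128 FPKM in control and at 176 and 185 in the libraries labelled knockdown. ATP6V1F, a subunit of the vacuolar ATPase, was at 102 and 96.8 against 159 and 153 FPKM, though 23.7% of its exons lie under a gene of the other strand. ARF5, a GTPase of the Golgi, was at 54.7 and 55.5 against 74.2 and 74.5 FPKM. SYPL1, a vesicle membrane protein, was at 46.1 and 45.7 against 62.8 and 63.8 FPKM. In these 4 genes the groups did not overlap, as in 35.9% of all tested genes for this direction, and the ratios ran from 1.35 to 1.57.

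Among growth factor and Wnt receptors, kinases, G proteins and adhesion partners, 15 of 21 members were called higher and none lower, with a median of 0.38. GNB2, a beta subunit of trimeric G proteins, was at 118 and 120 against 154 and 152 FPKM. ZYX, the focal adhesion protein zyxin, was at 59.4 and 59.1 against 79.8 and 79.3 FPKM. CDK6, a cyclin D-dependent kinase, was at 10.3 and 10.2 against 13.7 and 13.5 FPKM. Members that were not called lay on both sides of control. The ephrin receptor EPHB4 was at 33.4 and 32.4 against 34.2 and 36.0 FPKM, and BRAF, a kinase of the MAP kinase cascade, at 1.36 and 1.27 against 1.55 and 1.52 FPKM, and neither was called, though both lay above their controls in both libraries. The lowest value of the list was that of HIPK2, a nuclear serine/threonine kinase, at 4.05 and 3.84 against 2.99 and 3.51 FPKM (log2 fold change -0.22, not called), below both controls. CDK6, EPHB4, BRAF and HIPK2 were named after their values were seen.

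Of 26 metabolic enzymes and solute carriers, 16 were called higher and none lower (median 0.32). DLD, a component shared by mitochondrial dehydrogenase complexes, was at 26.6 and 27.5 against 42.8 and 41.0 FPKM. SLC4A2, a chloride and bicarbonate exchanger, was at 37.3 and 37.6 against 47.1 and 47.0 FPKM. PLOD3, a collagen lysyl hydroxylase, had a ratio of 1.34 and IMPDH1, an enzyme of guanine nucleotide synthesis, one of 1.13. All 4 were above both controls in both libraries, as were 75.6% of all members and 35.9% of all tested genes.

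In the ubiquitin list, 10 of 13 members were called higher and none lower (median 0.35). The list also holds genes of other kinds, such as UFSP1, and UBN2 and LRCH4, which were both called higher. CUL1, the scaffold of SCF ubiquitin ligases, was at 24.1 and 24.95 against 29.3 and 29.8 FPKM. MKRN1 and ANKIB1, both RING-type ligases, had ratios of 1.39 and 1.30. UBE2H, described above, led the list by ratio.

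Genes of chromatin, transcription and mRNA had a lower median of 0.21, with 14 of 27 called higher and 1 lower (MEPCE). SND1, a nuclease-domain coactivator and RNA-binding protein, was at 42.6 and 43.9 against 49.6 and 51.3 FPKM. SRRT, which links nuclear cap binding to RNA processing, was at 35.2 and 35.3 against 38.1 and 37.8 FPKM and was not called. POLR2J, a subunit of RNA polymerase II with near-identical copies on the arm, had a ratio of 1.24. The list also holds TES, which is not a chromatin protein. Of 23 zinc finger genes, 14 were called higher and none lower (median 0.28). ZNF282, ZKSCAN1 and ZNHIT1 had ratios of 1.17, 1.18 and 1.35. ZNF777 was at 12.05 and 12.9 against 13.3 and 11.9 FPKM and overlapped with control.

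In the list of genome maintenance and cell division, 62.5% of the members had a log2 fold change above 0, against 86.8% of all members. Its SD of 0.254 was not larger than the 0.290 of all members. Of 16 members 9 were called higher and none lower, with a median of 0.29 and a lower quartile of -0.05. SSBP1, the mitochondrial single-strand DNA-binding protein, was at 14.2 and 13.4 against 19.0 and 19.6 FPKM, while NUP205, PUS7, EZH2 and DBF4 were the members described above that were not called.

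The list of secreted and matrix genes spread widely in both directions around a median of 0.22. It also holds genes of other kinds, such as the claudins CLDN12 and CLDN15 (both called higher), ASIC3 and CADPS2. Of 13 members, 5 were called higher and 4 lower (LAMB1, CADPS2, PRSS1 and PRSS2). CALU, a calcium-binding protein of the secretory pathway, was at 70.2 and 71.5 against 88.4 and 88.4 FPKM. PODXL, a sialomucin, had a ratio of 1.17 and FAM3C, a secreted cytokine-like protein, one of 1.10. Among imprinted genes and their neighbours only 5 of 17 passed the filter, with a median of 0.29. PON2, an intracellular lactonase, was at 25.2 and 23.4 against 35.5 and 37.8 FPKM. MEST, which is expressed from the paternal copy, was at 14.4 and 14.3 against 15.7 and 16.6 FPKM and was not called, and COPG2, a coat subunit that overlaps it on the other strand, had a ratio of 1.38. CASD1, a sialic acid acetyltransferase, had a ratio of 1.27.

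Interferon-linked genes had the lowest list median, 0.10, from 6 members of which 2 were called higher and 1 lower. IRF5, an interferon regulatory transcription factor chosen after its values were seen, was higher, at 4.51 and 4.64 against 7.72 and 8.11 FPKM. TRIM56, an antiviral ubiquitin ligase, was at 11.1 and 11.2 against 13.4 and 13.2 FPKM. ZC3HAV1, the zinc finger antiviral protein, was at 21.6 and 22.5 against 23.1 and 23.0 FPKM. PARP12, an interferon-induced ADP-ribosyltransferase, was at 11.5 and 12.6 against 12.1 and 12.5 FPKM, within the range of its controls, and SAMD9 was lower. The other 11 listed genes of this role, SAMD9L among them, lay under the filter. With 6 members the list's median gives no test of a difference from the arm.

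MTPN (myotrophin, which binds actin-capping protein) completes the 5 most abundant members with AP1S1, GNB2, ATP6V1F and CALU. It was at 57.4 and 58.3 FPKM in control and at 85.9 and 90.0 in the libraries labelled knockdown, a ratio of 1.52.

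**Figure D5:**
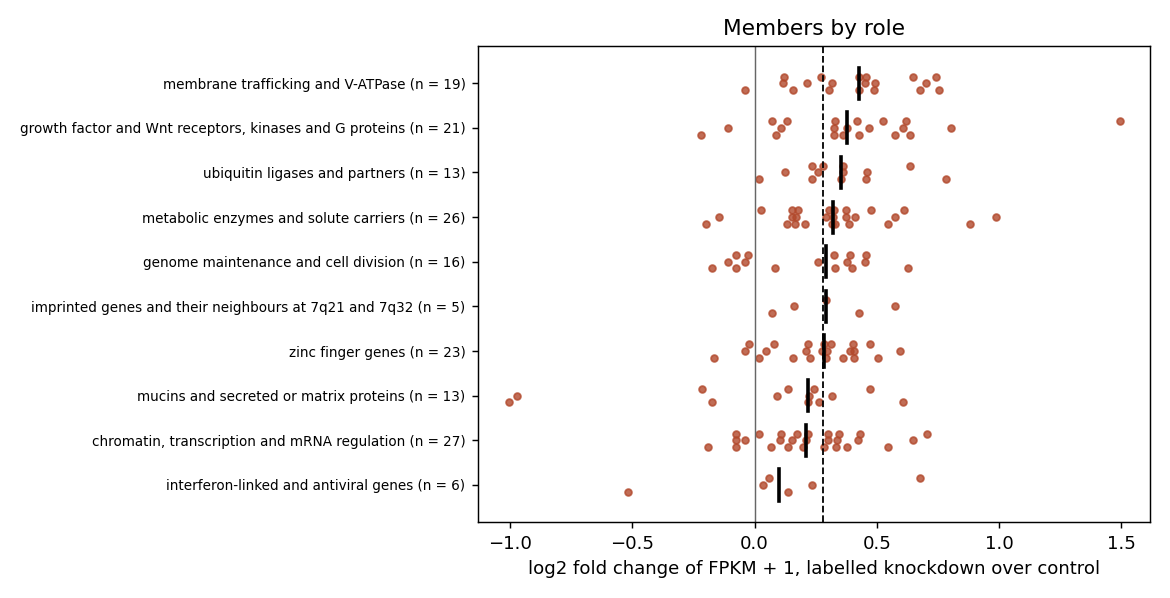
log2 fold change of FPKM + 1 (horizontal axis) of the members in each of 10 role lists (rows, with the number of members); points are genes, black bars list medians and the dashed line the median of all members, 0.28. List medians run from 0.10 for interferon-linked genes to 0.43 for the list of membrane trafficking and the vacuolar proton pump.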

How the data were processed

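RNA was sequenced from 4 libraries. Per the file headers, the authors deposited FPKM per gene, 1 table per library. HISAT2 2.0.5 and hg18 are named, with no role, per the submitters' processing notes. No source used here gives the counting tool, strand setting or filters. All 58735 IDs matched GENCODE 29, so its GRCh38 coordinates are used. FPKM times the union exon length gave whole reads (within 0.01) for 100% of values above 0, with totals of 17069628 to 19479906 reads per library.

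The test was limma-trend (limma 3.58.1, R 4.3.3) of log2(FPKM + 1) in all 12777 genes with a mean of at least 1 FPKM. Group was the only term, leaving 2 residual degrees of freedom, and p-values were two-sided and adjusted by Benjamini-Hochberg. The script was tested on simulated data. Figures used matplotlib 3.10.9.

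The members and lists were chosen with earlier results of these data known. Named were the 12 members farthest above and below the members' median (mean of at least 5 FPKM, departing in both libraries), up to 4 members with the highest mean per list, 5 genes at each side of both ends and the 5 most abundant members. Alternatives were another pseudocount, filter, normalization, scaling and test, a replicate block, and each library left out. Promoters are RefSeq's, found for 219 members.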

Additional observations from a re-analysis of the deposited data

How the results depend on the processing

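The members' median log2 fold change stayed above 0 in each of the 11 alternatives. It was 0.31 with limma-voom on recovered reads, 0.33 with a mean of at least 5 FPKM (169 members), 0.33 with a pseudocount of 0.1 and 0.27 with quantile normalization, and 0.278 to 0.292 when 1 library was left out. Calls of members were 87 higher and 3 lower with no filter on low values, where 3.92% and 2.53% of 28965 genes were called. With voom they were 156 and 14, where 19.6% and 21.2% of all genes were called. Leaving out 1 library gave 88 to 97 higher and 3 to 5 lower, with fewer samples in each fit, where 8.93% to 10.5% and 6.07% to 7.19% of all genes were called. Of the 141 members called higher, 80 kept the call in each alternative in which they were tested, and of the 8 called lower, 3 did. With the replicate number as a block, 139 were called higher and 6 lower. The numbers did not pair the libraries, since the deviations of replicates 1 and 2 correlated with r = -0.0021 across 12777 genes. The 24 named departures kept their side of the members' median in each alternative. Their choice by both libraries lying beyond both controls, in these same values, made this likely. The log2 fold change of DBF4 itself ran from -0.070 to 0.015 over the settings, so its sign was not kept. Members near 1 FPKM rest on few reads, and changes of this size in them may not be detectable at this depth.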

Other observations

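Within the same interval, 52 tested genes of other types (antisense, pseudogene and other non-coding transcripts) had a median log2 fold change of 0.08, lower than that of the members. Of these, 9 were called higher and 0 lower (limma), and 18 lay above both controls. These are 17.3% and 34.6% of the 52, near the 16.8% and 35.9% of all tested genes. On the other side, 5 (9.62%) lay below both controls, against 33.8% of all tested genes, of which 13.0% were called lower. A log2 fold change above 0 was found for 32 (61.5%), against 50.2% of all tested genes. The median mean level of the 52 genes was 2.81 FPKM against 7.26 for the members. The 14 antisense genes had a median of -0.08 and the 13 processed pseudogenes one of 0.10. Reads of such transcripts cannot be told apart from those of overlapping genes or parent copies.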
